A study of Mus musculus with 14 samples.

Results

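Glutamatergic neurons of the mouse lateral hypothalamus that carry Trh transcript were examined in single-cell libraries from mice given a high fat diet and mice given a control chow. A barcode counted as such a neuron when it had at least 1000 unique molecular identifiers (UMIs, each 1 captured transcript molecule) and at most 20% of them from mitochondrially encoded genes. It also needed at least 1 UMI of Slc17a6, the vesicular glutamate transporter of subcortical neurons, and more Slc17a6 than Gad1, Gad2 and Slc32a1 together, the genes of GABA synthesis and vesicle loading. Hcrt and Pmch, the precursor genes of hypocretin and melanin-concentrating hormone, each had to stay under 0.5% of its UMIs. The last condition was at least 3 UMIs of Trh, so the neurons were chosen by their own counts of these genes. These conditions were met by 131 of 28410 barcodes, which is 131 of the 9891 barcodes that passed the depth and mitochondrial limits and 131 of 1603 glutamatergic barcodes. They are called Trh neurons here, and the remaining 1472 glutamatergic barcodes are called the other glutamatergic neurons.

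The libraries came from 14 male wildtype C57BL/6J mice, 7 on the high fat diet and 7 on a chow matched to it in taste, all fed ad libitum under a reversed light cycle. Each library held cells from lateral hypothalamic tissue punches of 1 mouse, made by Drop-seq, in which a cell is captured in a droplet with a barcoded bead. A punch can include cells of neighbouring nuclei, the files give no position for a neuron, and the sources used here state neither the mice's age nor how long the diet lasted. The study's title concerns a lateral hypothalamic population that limits feeding and how obesity alters it.

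Trh encodes the precursor of thyrotropin-releasing hormone, a short amidated peptide that is cut from several copies in 1 precursor by prohormone convertases, trimmed by carboxypeptidase E, and finished by glutaminyl cyclase and an amidating enzyme. Neurons of the paraventricular hypothalamus release it to drive the pituitary-thyroid axis, and thyroid hormone feeds back on the gene. Other hypothalamic neurons use the same peptide as a transmitter, and given into the brain it is known to raise arousal and body temperature and to lower food intake. Otp and Sim1, transcription factors of peptidergic neurons of the anterior and paraventricular hypothalamus, and Adcyap1, the precursor of the peptide PACAP, are among the genes set beside Trh below.

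Trh lies on chromosome 6 at 92242061 to 92244650, minus strand, and Adcyap1 on chromosome 17 at 93199017 to 93206537, plus strand (GRCm38, GENCODE M21). The 250 bases before the start of each gene are shown because these are the defining peptide gene of the neurons and the peptide gene with the largest fold among those that were higher in every mouse tested (RefSeq, GRCm38.p6). Capitals mark matches to the motifs searched on both strands, and each is written 5′ to 3′ on the gene's own strand.
Trh, chr6:92244651-92244900, minus strand: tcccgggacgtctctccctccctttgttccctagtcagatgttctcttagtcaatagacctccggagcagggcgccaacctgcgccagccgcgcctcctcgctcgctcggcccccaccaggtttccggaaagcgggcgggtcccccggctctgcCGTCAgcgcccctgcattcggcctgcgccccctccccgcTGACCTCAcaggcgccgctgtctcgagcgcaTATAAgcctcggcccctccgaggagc
Adcyap1, chr17:93198767-93199016, plus strand: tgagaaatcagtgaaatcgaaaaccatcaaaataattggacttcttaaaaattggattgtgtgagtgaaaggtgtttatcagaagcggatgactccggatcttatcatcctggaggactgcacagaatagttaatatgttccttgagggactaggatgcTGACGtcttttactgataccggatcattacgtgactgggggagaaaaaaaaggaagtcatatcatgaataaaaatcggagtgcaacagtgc
The Trh window held TGACCTCA at -57 to -50 from the start, TGACG on the other strand at -96 to -92 and TATAA at -26 to -22. The Adcyap1 window held TGACG at -91 to -87. Over 32851 windows of 250 bases before gene starts, TGACCTCA was present in 1.94%, TGACG in 17.8%, TATAA in 22.8% and TGACGTCA, the palindrome of cyclic AMP response elements, which contains TGACG and was in neither window, in 1.55%. A match describes the letters and does not show that a factor binds there.

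Trh was counted at 3 to 117 UMIs in the Trh neurons, with a median of 10 and an interquartile range of 6 to 18. The neurons were selected on this level, which is given as a description. 16 neurons stood exactly at the limit of 3 UMIs and 6 at 4, while 12 glutamatergic barcodes with 2 UMIs and 34 with 1 stood just outside it and 1426 had none. At the upper end 70 neurons (53.4%) had at least 10 Trh UMIs and 5 had at least 50. The Trh neurons held 1923 of the 2819 Trh UMIs in all barcodes, or 68.2%. Outside them 38 passing barcodes had 3 or more Trh UMIs, and 17 of these were GABAergic. When every barcode was thinned to 1000 UMIs, Trh was seen in 81.7% of Trh neurons, against 1.15% of the other glutamatergic neurons, 0.624% of GABAergic barcodes and 0.392% of barcodes with an oligodendrocyte marker profile. Those oligodendrocyte barcodes had at least 1% of their UMIs from oligodendrocyte markers and no UMI of Slc17a6, Gad1, Gad2 or Slc32a1. Low shares of neuron genes in them, here and below, are partly set by that choice.

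The Trh neurons were deeper than the cells they are set against, with a median of 6195 UMIs and 2915 genes against 4234 UMIs and 2268.5 genes in the other glutamatergic neurons. A limit on the number of Trh UMIs is met more easily by a deep barcode. Library totals ran from 147470 to 5611524 UMIs. Scrublet called 0 of the 131 Trh neurons doublets, against 29 (1.97%) of the other glutamatergic neurons. No Trh neuron shared its barcode sequence with another library, although 41 sequences occurred in more than 1 library. Of the 131 barcodes, 20 were within 1 base of another barcode of their own library, none of them of another Trh neuron, and 9 held an undetermined base. The neuron markers Snap25, Syt1, Rbfox3, Stmn2, Tubb3 and Meg3 were all present, with a summed level of 12128 CPM (UMIs of a gene per 1000000 UMIs of the cells summed) against 12289 CPM in the other glutamatergic neurons. The neuron label was met by these markers, whereas Slc17a6 was fixed by the rule, and Slc17a7 and Slc17a8, the other vesicular glutamate transporters, were at 0. The astrocyte list summed to 24.4 CPM with Aqp4, Gja1, Gfap and Mlc1 at 0. The microglia list summed to 2.04 CPM with C1qa, C1qc, Cx3cr1, P2ry12 and Tmem119 at 0.

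Hcrt, abundant in hypocretin neurons, was read as a gauge of free RNA in the punches, within the limit that the rule sets on it. After thinning to 1000 UMIs, Hcrt was seen in 11.5% of Trh neurons, 11.1% of the other glutamatergic neurons, 12.5% of GABAergic barcodes and 18.6% of barcodes with an oligodendrocyte marker profile. Otp was seen in 19.8% of Trh neurons, 7.61% of the other glutamatergic neurons, 0.650% of GABAergic barcodes and 0.0905% of the oligodendrocyte barcodes. For Onecut2 the shares were 14.5% of Trh neurons, 2.24% of the other glutamatergic neurons, 1.22% of GABAergic barcodes and 1.03% of the oligodendrocyte barcodes. Trh and Hcrt are part of the rule, so their shares in Trh neurons and the other glutamatergic neurons are partly set by it and are given as a description.

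3 libraries stood apart from the rest, in neuropeptide-processing transcripts and in how their glutamatergic barcodes clustered. In the glutamatergic neurons of high fat diet replicate 1 and control replicates 1 and 2, Pcsk1n, an inhibitor of prohormone convertase 1, was at 192 to 552 CPM, against 1313 to 1778 CPM in the 9 other mice with at least 20 glutamatergic barcodes. Cpe, the carboxypeptidase, was at 366 to 469 CPM in those 3 mice, against 654 to 898 CPM in the 9 others. When the glutamatergic barcodes were clustered, as described below, these 3 libraries gave 99.1% of the 224 barcodes of cluster 2, led by C1ql3, Maob and Arpp21. They also gave 79.5% of cluster 8. Of 1613 genes at 100 CPM or more in each of the 9 others, 0 were at least 4-fold below the lowest of those mice in all 3. The 3 libraries belong to pool 1 of the 2 pools that were sequenced on separate lanes, as do other mice that do not stand apart. Results that changed without them are given with that value.

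Trh neurons were found in 13 of 14 mice. High fat diet replicates 1 to 7 gave 15, 34, 14, 11, 6, 2 and 0 of them, and control replicates 1 to 7 gave 3, 7, 18, 10, 8, 2 and 1. As a share of the glutamatergic barcodes of a mouse they made up 6.85, 16.2, 7.04, 5.91, 9.84 and 3.92% in high fat diet replicates 1 to 6, against 2.34, 7.87, 13.7, 6.10, 5.93 and 9.09% in control replicates 1 to 6. The ranges of the diets overlapped throughout. The 95% exact Clopper-Pearson interval, which covers counting error only, ran from 11.5 to 21.9% for the highest share, in high fat diet replicate 2, and from 0.486 to 6.70% for the lowest, in control replicate 1.

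The share was 8.29 ± 4.32% on high fat diet and 7.51 ± 3.81% on control chow (SD, n = 6 mice each with at least 20 glutamatergic barcodes), a difference of 0.780 percentage points. A two-sided exact permutation test over all 924 splits gave p = 0.738, and 0.963 after Benjamini-Hochberg adjustment over 3 measures. Within pool 1 the means were 6.60% on high fat diet and 7.98% on control chow (exact permutation p = 0.7), and within pool 2 they were 9.98% on high fat diet and 7.04% on control chow (exact permutation p = 0.6; 3 mice of each diet allow no p below 0.1). The sign of the difference turned without high fat diet replicate 2 (-0.799 points), without control replicate 1 (-0.253 points) and without the 3 libraries that stood apart (-0.134 points). With depth made equal by thinning, Trh was seen in 7.88 ± 3.08% of glutamatergic barcodes on high fat diet and 6.49 ± 4.16% on control chow (exact permutation p = 0.506, adjusted 0.963, n = 6 each).

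**Figure D1:**
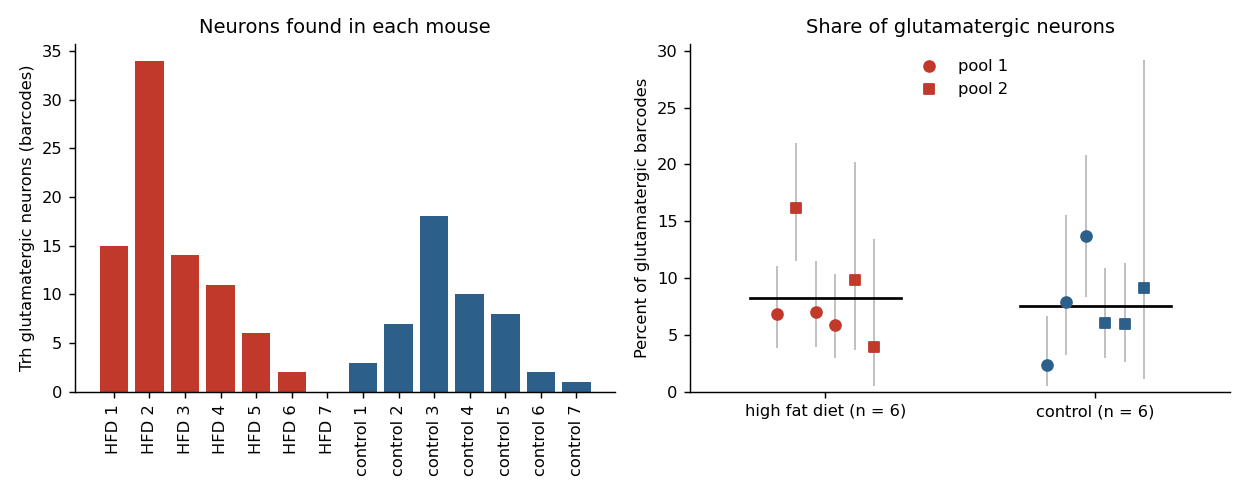
Left, number of Trh neurons (y axis, barcodes) in each high fat diet (red) and control (blue) mouse. Right, their percent of glutamatergic barcodes per mouse, with bars for the 95% Clopper-Pearson interval, horizontal lines for the diet means of 8.29% and 7.51%, and circles and squares for pools 1 and 2. The highest single share, 16.2%, is that of high fat diet replicate 2, and the diets overlap.

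For tests of gene levels, UMIs were summed over the Trh neurons of each mouse with at least 5 of them, which left 9 mice, high fat diet replicates 1 to 5 and control replicates 2 to 5. The same mice gave the sums of the other glutamatergic neurons, so each comparison of cells is within mice. Of 5497 genes that passed the filter on low counts and are not part of the rule, 182 differed between Trh neurons and other glutamatergic neurons (3.31%), with 96 higher in Trh neurons (1.75%) and 86 lower (1.56%), by edgeR's quasi-likelihood test with Benjamini-Hochberg adjustment and a threshold of 0.05. The median log2 difference over all genes was -0.00044. Folds below are log2, Trh neurons over other glutamatergic neurons, with a standard error from that fit, and ± gives the SD over the 9 mice.

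Compared with the other glutamatergic neurons, Trh neurons had higher levels of the peptide genes Adcyap1 and Pnoc, the transcription factors Onecut2, Sim1 and Otp and the cerebellins Cbln1 and Cbln2. Their levels of Meis2, of the LIM-homeodomain genes Lhx1 and Lhx5 and of the peptide gene Nts were lower. The neuropeptide list had 9 of its 35 measured genes pass the filter, of which Adcyap1, Pnoc and Cartpt were higher and Nts was lower, with a median log2 fold of 0.71.

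Adcyap1, the PACAP precursor, was at 256, 346, 138, 187 and 383 CPM in the Trh neurons of high fat diet replicates 1 to 5 and at 258, 407, 371 and 390 CPM in those of control replicates 2 to 5. In the other glutamatergic neurons of the same mice it was at 117, 67.7, 91.3, 39.1 and 68.5 CPM on high fat diet and 156, 115, 117 and 43.2 CPM on control chow. Every mouse had more in its Trh neurons, although the ranges over mice overlap. The log2 fold was 1.87 (SE 0.20, edgeR adjusted p = 2.1e-06). At least 1 Adcyap1 UMI was present in 83 of 131 Trh neurons (63.4%), and after thinning in 23.7% of them, against 7.27% of the other glutamatergic neurons and 0.0603% of barcodes with an oligodendrocyte marker profile. The median depths before thinning were 6195, 4234 and 1468 UMIs.

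Pnoc, the precursor of nociceptin, averaged 233 ± 98.2 CPM in Trh neurons and 76.2 ± 28.1 CPM in the other glutamatergic neurons, a log2 fold of 1.55 (SE 0.17, edgeR adjusted p = 1.7e-11), and was higher in 9 of 9 mice. Cartpt, the precursor of the CART peptides, was far less even. It was at 337, 236, 96.5, 3724 and 0 CPM in the Trh neurons of high fat diet replicates 1 to 5 and at 0, 772, 42.2 and 0 CPM in those of control replicates 2 to 5, against 2.84 to 52.6 CPM in the other glutamatergic neurons. 3 of the 9 mice had none in their Trh neurons, and 1 barcode with 199 UMIs held 48.7% of all Cartpt UMIs of the Trh neurons. That barcode came from high fat diet replicate 4 and held all Cartpt UMIs of that mouse's Trh neurons. Its log2 fold of 3.69 (SE 0.73, edgeR adjusted p = 0.031) lost the call without control replicate 2 (adjusted p = 0.052), without control replicate 3 (0.13), without the 3 libraries that stood apart (0.10) and with DESeq2 (log2 fold 2.08, 0.23). Nts, the neurotensin precursor, averaged 35.5 ± 28.1 CPM in Trh neurons and 255 ± 142 CPM in the other glutamatergic neurons, a log2 fold of -2.57 (SE 0.33, edgeR adjusted p = 0.00017), lower in 9 of 9 mice. Penk, the enkephalin precursor, had a log2 fold of -1.55 that did not pass (edgeR adjusted p = 0.17) but passed with DESeq2 (log2 fold -2.42, adjusted p = 0.00091).

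Of 65 transcription factors of hypothalamic neuron identity 12 could be tested, and 5 were higher and 4 lower. Onecut2, a homeodomain factor with a cut domain, had the largest rise among them, at 121, 149, 110, 262 and 244 CPM in the Trh neurons of high fat diet replicates 1 to 5 and 194, 174, 228 and 153 CPM in those of control replicates 2 to 5. The other glutamatergic neurons of those mice had 5.62 to 49.8 CPM of Onecut2, so the groups did not overlap. The log2 fold was 2.51 (SE 0.21, edgeR adjusted p = 4.9e-17). Sim1 averaged 104 ± 52.6 CPM in Trh neurons and 30.5 ± 13.6 CPM in the other glutamatergic neurons (log2 fold 1.61, SE 0.23, edgeR adjusted p = 1.9e-07). Otp was at 82.7 to 453 CPM in Trh neurons and 32.3 to 191 CPM in the other glutamatergic neurons (log2 fold 1.19, SE 0.20, edgeR adjusted p = 0.00053). Both were higher in 9 of 9 mice.

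Zic1, a zinc finger factor of the dorsal and midline brain, averaged 85.8 ± 60.4 CPM in Trh neurons and 42.9 ± 15.8 CPM in the other glutamatergic neurons (log2 fold 1.10, SE 0.25, edgeR adjusted p = 0.0016), with 7 of 9 mice higher. Fezf1, a zinc finger factor of forebrain development, was higher by a log2 fold of 0.89 (SE 0.25, edgeR adjusted p = 0.020), also in 7 of 9 mice. Its call was lost without control replicate 3 (adjusted p = 0.12), without control replicate 5 (0.075) and when Trh neurons needed 5 Trh UMIs (0.21). Onecut2, Cbln1, Adcyap1, Otp and Fezf1 were proposed as markers of these neurons from results on the same libraries, so their direction is not independent evidence.

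The 4 factors that were lower were Meis2, Lhx1, Lhx5 and Tcf4. Tcf4, a basic helix-loop-helix factor, did not pass with DESeq2 (adjusted p = 0.13). Meis2, a homeodomain factor of the TALE class, had 2.98 CPM in the Trh neurons of high fat diet replicate 2, 32.3 and 16.9 CPM in those of control replicates 2 and 4 and none in the other 6 mice, against 87.7 to 347 CPM in the other glutamatergic neurons. The groups did not overlap, and the log2 fold was -5.33 (SE 0.35, edgeR adjusted p = 1.3e-21). Lhx1, a LIM-homeodomain factor, had 0 of 934785 UMIs in the Trh neurons of the 9 mice, against 345 of 6317171 (54.6 CPM) in the other glutamatergic neurons. Against a floor of 3 UMIs summed over the mice, it was at least 17-fold lower. 1500016L03Rik, which RefSeq lists as a synonym of the Lhx1 antisense transcript Lhx1os, was at least 18.3-fold lower on the same floor, with 0 against 371 UMIs. Whether the authors' counting used the strand is not given in the sources used here, so reads of the pair could be shared. Lhx5 averaged 13.7 ± 27.6 CPM in Trh neurons and 77.5 ± 32.6 CPM in the other glutamatergic neurons (log2 fold -1.92, SE 0.34, edgeR adjusted p = 6e-05).

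Among 22 synaptic organisers 15 were tested, and the secreted cerebellins Cbln1 and Cbln2, synaptic organisers that bind glutamate delta receptors, were higher. Cbln1 was at 148, 313, 262, 487 and 209 CPM in the Trh neurons of high fat diet replicates 1 to 5 and 161, 407, 312 and 223 CPM in those of control replicates 2 to 5, against 66.3 to 125 CPM in the other glutamatergic neurons. Its lowest mouse stood above the highest mouse of the other glutamatergic neurons, and the log2 fold was 1.68 (SE 0.14, edgeR adjusted p = 2.2e-16). Cbln2 averaged 355 ± 111 CPM in Trh neurons and 113 ± 48.3 CPM in the other glutamatergic neurons (log2 fold 1.57, SE 0.16, edgeR adjusted p = 1.5e-09).

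The other genes with large rises had varied roles. Rab3b, a small GTPase of secretory vesicles, averaged 535 ± 163 CPM in Trh neurons and 129 ± 27.3 CPM in the other glutamatergic neurons (log2 fold 1.99, SE 0.13). Sdc2, a heparan sulfate proteoglycan, averaged 456 ± 196 CPM in Trh neurons and 124 ± 27.7 CPM in the other glutamatergic neurons (log2 fold 1.77, SE 0.12). Fgf1, a fibroblast growth factor, had a log2 fold of 1.79, and Nostrin, a regulator of nitric oxide synthase traffic, of 3.63 from low levels of 68.9 ± 28.4 CPM in Trh neurons and 5.60 ± 3.86 CPM in the others. All 4 were higher in 9 of 9 mice. Angpt1, an angiopoietin, had a log2 fold of 2.24 and was higher in 8 of 9 mice, and Gm2694 one of 2.10.

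Ddc, the decarboxylase that makes dopamine and serotonin from their precursors, averaged 132 ± 79.2 CPM in Trh neurons and 22.3 ± 9.03 CPM in the other glutamatergic neurons (log2 fold 2.42, SE 0.24, edgeR adjusted p = 6.4e-13). It was also present elsewhere in the tissue. After thinning, Ddc was seen in 7.63% of Trh neurons, 1.90% of the other glutamatergic neurons, 6.58% of GABAergic barcodes and 8.93% of barcodes with an oligodendrocyte marker profile. Its share in Trh neurons therefore lay below that in the oligodendrocyte barcodes and above that in the glutamatergic neurons of the same libraries. Th, the tyrosine hydroxylase of dopamine synthesis, had a UMI in 19 Trh neurons (14.5%) against 1.63% of the other glutamatergic neurons and 0.0302% of the oligodendrocyte barcodes, and after thinning in 1.53% of Trh neurons, 0.340% of the other glutamatergic neurons and 0.0302% of the oligodendrocyte barcodes.

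**Figure D2:**
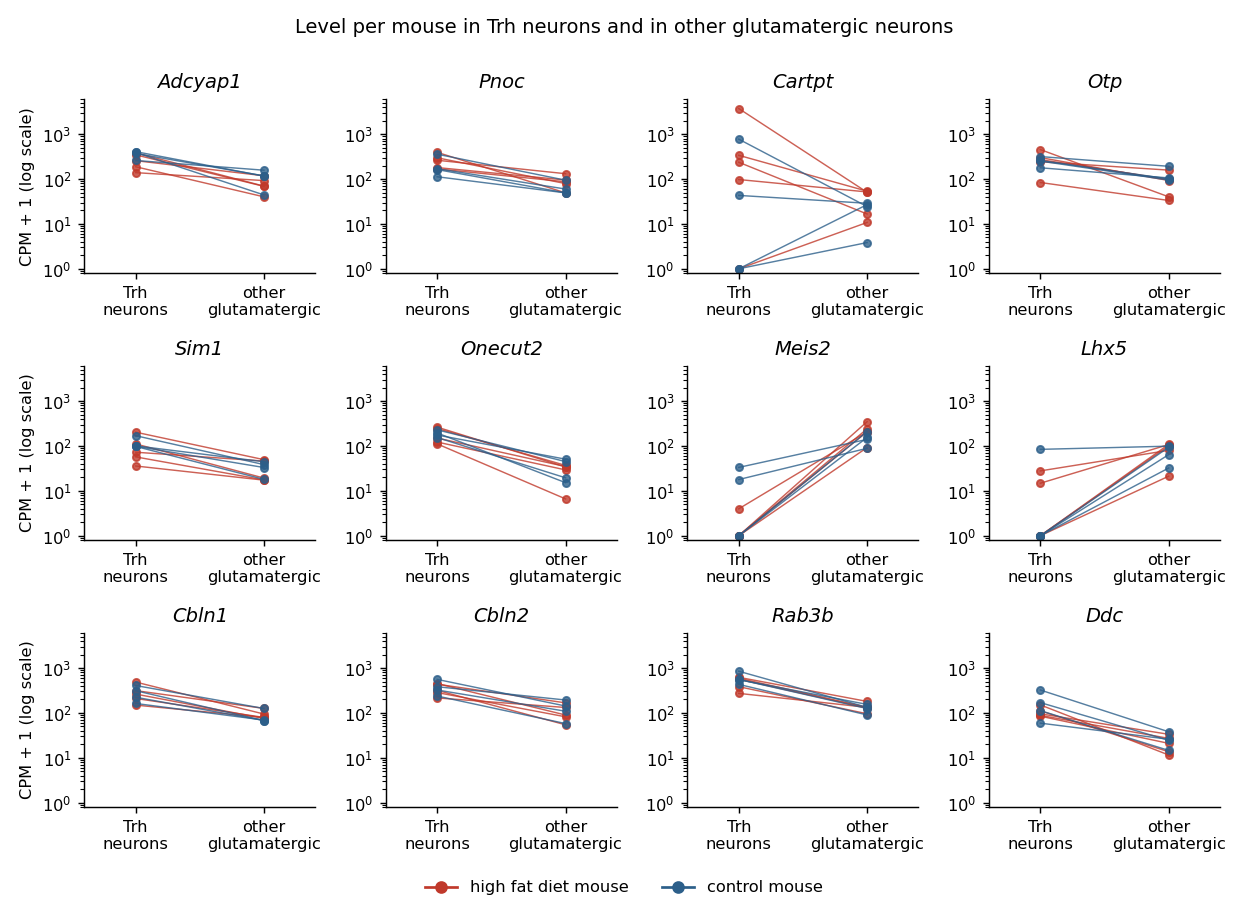
Level of 12 genes in the Trh neurons (left of each panel) and the other glutamatergic neurons (right) of 9 mice, as CPM + 1 on a log scale, 1 line per mouse, red for high fat diet and blue for control. Onecut2, Cbln1 and Rab3b are higher in every Trh neuron sum, Meis2 is lower in every one, and Cartpt ranges from 0 to 3724 CPM between mice.

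Of the 22 genes on the list of TRH synthesis, processing and thyroid hormone feedback, 10 were tested, and Pcsk2, Qpct and Pam were higher while Pcsk1 was lower. The median log2 fold of the list was 0.09. Pcsk2, prohormone convertase 2, averaged 409 ± 157 CPM in Trh neurons and 222 ± 57.7 CPM in the other glutamatergic neurons (log2 fold 0.88, SE 0.13, edgeR adjusted p = 2.1e-06). Qpct, the glutaminyl cyclase that forms the blocked amino end of the hormone, averaged 202 ± 48.8 CPM in Trh neurons and 113 ± 13.1 CPM in the other glutamatergic neurons (log2 fold 0.80, SE 0.15, edgeR adjusted p = 8.2e-05). Pam, the amidating enzyme, had a log2 fold of 0.43 (SE 0.09, edgeR adjusted p = 0.0010).

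Pcsk1, prohormone convertase 1, went the other way. It was at 80.9, 44.7, 13.8, 37.4 and 34.8 CPM in the Trh neurons of high fat diet replicates 1 to 5 and at 32.3, 116, 59.0 and 41.8 CPM in those of control replicates 2 to 5, against 87.1 to 176 CPM in the other glutamatergic neurons. 8 of 9 mice had less in their Trh neurons, and the log2 fold was -1.06 (SE 0.21, edgeR adjusted p = 0.00029). Cpe had a log2 fold of -0.04 (SE 0.09) and Thra, a thyroid hormone receptor, of -0.04 (SE 0.11), and neither passed. Dio2, the deiodinase that activates thyroid hormone, had 0 UMIs in the 131 Trh neurons, which allows a share of cells with a UMI of up to 2.29%.

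Of 10 tested genes of the granin and dense-core cargo list, 2 were higher and 1 lower. Chgb, chromogranin B, averaged 1109 ± 287 CPM in Trh neurons and 783 ± 69.7 CPM in the other glutamatergic neurons (log2 fold 0.49, SE 0.08, edgeR adjusted p = 2.0e-06), higher in 9 of 9 mice. The immediate early list, genes that rise within minutes of activity, had 6 tested genes and 2 lower, Nrn1 and Fos. Nrn1, neuritin, averaged 207 ± 65.8 CPM in Trh neurons and 421 ± 109 CPM in the other glutamatergic neurons (log2 fold -0.91, SE 0.12, edgeR adjusted p = 1.8e-08). Fos averaged 38.2 ± 37.3 CPM in Trh neurons and 74.0 ± 23.9 CPM in the other glutamatergic neurons (log2 fold -1.15, SE 0.28, edgeR adjusted p = 0.0041), but its call was lost when Trh neurons needed only 2 Trh UMIs (0.23).

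Calls in the receptor, channel and signalling lists varied by list, beside 3.31% called (182) of all 5497 genes. Of the feeding hormone and peptide receptor list 8 of 42 measured genes were tested, and 0 passed with edgeR or DESeq2, with 1 unadjusted by each, the glucocorticoid receptor Nr3c1. The same tools called 0 of 10 leptin and insulin signalling genes (1 unadjusted by edgeR, 0 by DESeq2) and 0 of 4 glucocorticoid-responsive genes (3 unadjusted by each). They called 0 of 15 endoplasmic reticulum folding genes and 0 of 7 mitochondrially encoded genes, with 0 unadjusted by either. Of 12 GABA-A receptor genes edgeR called 3 and DESeq2 2, and Gabrq and Gabrg1 were higher by edgeR. Of 9 ionotropic glutamate receptor genes edgeR called 1, Gria3, which was higher. Of 26 ion channel genes edgeR called 3, Kcna1, Cacna2d1 and Scn1a, all lower, and DESeq2 called 2. Gabrq, the theta subunit, averaged 89.8 ± 41.3 CPM in Trh neurons and 34.4 ± 16.0 CPM in the other glutamatergic neurons (log2 fold 1.45, SE 0.24, edgeR adjusted p = 8.5e-06). Kcna1, a voltage-gated potassium channel, averaged 21.4 ± 15.7 CPM in Trh neurons and 65.0 ± 31.1 CPM in the other glutamatergic neurons (log2 fold -1.40, SE 0.30, edgeR adjusted p = 0.00075).

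Calls of small folds depended on single mice. The edgeR adjusted p of Gabrg1 was between 0.054 and 0.30 without high fat diet replicates 1 or 5 or control replicates 3, 4 or 5. For Gria3 it was between 0.085 and 0.28 without any 1 of the 5 high fat diet mice or control replicate 3. For Scn1a it was between 0.069 and 0.13 without high fat diet replicates 1, 4 or 5 or control replicate 5. Cadps and Resp18, the other called genes of the granin list, lost their calls without any 1 of 8 mice (all but control replicate 4, between 0.051 and 0.16) and without high fat diet replicate 1 or control replicates 2, 3 or 5 (between 0.062 and 0.13). Without the 3 libraries that stood apart the edgeR adjusted p was 0.14 for Cadps and 0.25 for Resp18. With DESeq2 the adjusted p was 0.23 for Gria3, 0.074 for Gabrg1, 0.093 for Scn1a and 0.092 for Cadps, so that DESeq2 called 0 of the 9 ionotropic glutamate receptor genes, with 4 unadjusted.

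All 5 tested oligodendrocyte markers were lower in Trh neurons, Mbp, Mobp, Cnp and Ermn among them. The list of 10 summed to 301 CPM in Trh neurons and 2049 CPM in the other glutamatergic neurons, with all 10 present in both. Per mouse its sum in Trh neurons was 189 to 358 CPM on high fat diet and 257 to 645 CPM on control chow. Mbp, the myelin basic protein gene, averaged 61.3 ± 27.6 CPM in Trh neurons and 236 ± 112 CPM in the other glutamatergic neurons (log2 fold -1.89, SE 0.18, edgeR adjusted p = 3.5e-14). When only barcodes with under 1% of UMIs from these markers were kept, Ptgds, a prostaglandin synthase of oligodendrocytes and meninges with a log2 fold of -3.19 over all barcodes, had one of -1.16 and did not pass (edgeR adjusted p = 0.067). Cryab, Car2, Ermn and Apod, whose log2 folds over all barcodes were -3.21, -2.91, -3.11 and -2.55, did not reach the filter on low counts there and gave no value. Between Trh neurons and the other glutamatergic neurons, 167 genes were called with this limit on oligodendrocyte markers, of which 161 were among the 182.

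A narrower set of cells for comparison was 314 glutamatergic barcodes with Otp or Sim1 and 0 Trh UMIs, with a median of 5078 UMIs. Of 131 Trh neurons, 91 had Otp, 54 had Sim1 and 103 had either. In this comparison Otp and Sim1 chose the cells and are not tested. Of 2404 genes, 35 differed (1.46%), with 26 higher in Trh neurons (1.08%) and 9 lower (0.374%), by edgeR's quasi-likelihood test with Benjamini-Hochberg adjustment in the same 9 mice. Without control replicate 4 the count was 21, with 15 higher and 6 lower.

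Onecut2, Cbln1, Cbln2, Rab3b, Sdc2, Fgf1 and Pnoc were higher in Trh neurons than in the Otp or Sim1 neurons too. Onecut2 averaged 182 ± 53.9 CPM in Trh neurons and 48.1 ± 22.04 CPM in the Otp or Sim1 neurons (log2 fold 1.80, SE 0.21, edgeR adjusted p = 6.7e-10). Cbln1 averaged 280 ± 112 CPM in Trh neurons and 113 ± 34.0 CPM in the Otp or Sim1 neurons (log2 fold 1.33, SE 0.16, edgeR adjusted p = 2.6e-09). Rab3b had a log2 fold of 2.04 (SE 0.15) and Sdc2 of 1.73 (SE 0.16). Each of these 4 was higher in 9 of 9 mice. Fgf1, with a log2 fold of 1.21, lost its call without the 3 libraries that stood apart (adjusted p = 0.074). Meis2, which was low in Trh neurons, was low in the Otp or Sim1 neurons as well, where it was at 34.4 CPM in high fat diet replicate 1 and 0 in the 8 other mice, and it did not reach the filter of this test. Onecut2 was the 1 gene of the transcription factor list tested here, so Lhx1, Lhx5 and Tcf4 have no result against these neurons. Of 6 tested neuropeptide genes Penk alone had a negative fold. Nts was therefore not called lower here, but a gene under the filter has no result in this test.

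Of the processing enzymes, Pcsk2 (log2 fold 0.54, SE 0.14, edgeR adjusted p = 0.015) and Qpct (0.68, SE 0.17, 0.0097) were higher here as well. Only 7 genes of that list passed the filter here, and 0 of them were called lower. Pcsk1 was therefore not called lower against the Otp or Sim1 neurons, but a gene under the filter has no result here. Pam had 571 ± 204 CPM in Trh neurons and 548 ± 146 CPM in the Otp or Sim1 neurons and did not pass. Adcyap1 did not pass either, at 304 ± 97.5 CPM in Trh neurons and 136 ± 85.9 CPM in the Otp or Sim1 neurons (log2 fold 1.28, SE 0.38, edgeR adjusted p = 0.29), although 8 of 9 mice had more of it in their Trh neurons.

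Penk was the gene with the largest fall against the Otp or Sim1 neurons. It was at 26.95, 224, 276, 93.6 and 0 CPM in the Trh neurons of high fat diet replicates 1 to 5 and 32.3, 16.6, 25.3 and 83.5 CPM in those of control replicates 2 to 5. The Otp or Sim1 neurons had 585, 525, 795, 817 and 338 CPM on high fat diet and 296, 1037, 318 and 719 CPM on control chow. The groups did not overlap, and the log2 fold was -2.54 (SE 0.42, edgeR adjusted p = 0.022). That call was lost without high fat diet replicate 1 (0.058), high fat diet replicate 4 (0.074), control replicate 4 (0.077), control replicate 5 (0.062) or the 3 libraries that stood apart (0.13). Hpca, the calcium sensor hippocalcin, averaged 126 ± 85.5 CPM in Trh neurons and 352 ± 50.4 CPM in the Otp or Sim1 neurons (log2 fold -1.47, SE 0.16, edgeR adjusted p = 1.7e-10), and Id2, an inhibitor of basic helix-loop-helix factors, had a log2 fold of -1.40 (SE 0.23).

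Trh neurons were not uniform. Clustering all glutamatergic barcodes without the genes of the rule gave 15 clusters, and 117 of 131 Trh neurons lay in 4 of them, named here by number with their leading genes. This is a description with no test, since the same cells' genes made the clusters. Cluster 9, led by Cartpt, Nostrin, Ddc and Onecut2, held 55 Trh neurons, which were 42.0% of all Trh neurons and 77.5% of that cluster's 71 barcodes. Only 10 of those 55 had a Cartpt UMI and 4 had at least 3, and a single barcode held most of these UMIs. Cartpt was at 639, 400, 14.8 and 317 CPM in the Trh neurons of clusters 9, 4, 10 and 8. In clusters 4, 10 and 8 it had a UMI in 8, 2 and 2 Trh neurons. Cluster 4, led by Calca, Sst, Crhbp and Ebf1, held 27 of them (20.9% of 129 barcodes), and cluster 10, led by Gsc, Nms and Zic4, held 20 (30.3% of 66). Cluster 8, led by Grp and Ppp1r17, held 15, and all of those came from the 3 libraries that stood apart, which gave 79.5% of its barcodes.

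Levels were summed over the Trh neurons of each cluster. Otp, Sim1 and Adcyap1 were present in all 4. Otp was at 218, 328, 214 and 193 CPM in the Trh neurons of clusters 9, 4, 10 and 8, and Sim1 at 115, 96.4, 73.9 and 96.5 CPM. Onecut2 was at 254 CPM in cluster 9 and 234 CPM in cluster 8, but at 72.3 CPM in cluster 4 and 7.39 CPM in cluster 10. Ddc and Cbln2 were also higher in clusters 9 and 8 than in clusters 4 and 10, with Ddc at 195, 9.64, 0 and 207 CPM in clusters 9, 4, 10 and 8 and Cbln2 at 573, 140, 22.2 and 303 CPM.

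Fezf1 was distributed the other way, at 4.28, 178, 222 and 13.8 CPM in the Trh neurons of clusters 9, 4, 10 and 8. Calca, the precursor of calcitonin gene-related peptide, was at 703.7 CPM in cluster 4 and had no UMI in clusters 9 and 10. Sst, the somatostatin precursor, was at 2082 CPM in cluster 4 against 96.1 to 257 CPM in the other 3, and Pnoc at 496 CPM against 14.8 to 205 CPM. The Sst UMIs of cluster 4 came from 11 of its 27 Trh neurons. Tac1, the substance P precursor, was at 1610 CPM in cluster 4 and 1737 CPM in cluster 10, against 242 CPM in cluster 9 and 689 CPM in cluster 8. It had a UMI in 18 of 27, 14 of 20, 9 of 55 and 2 of 15 Trh neurons of clusters 4, 10, 9 and 8. Penk was at 495 CPM in cluster 10, from 7 of its 20 Trh neurons, and at 41.4 to 67.5 CPM in the others. Ucn3, urocortin 3, was at 171 CPM in cluster 9 and came from 5 of its 55 Trh neurons.

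**Figure D3:**
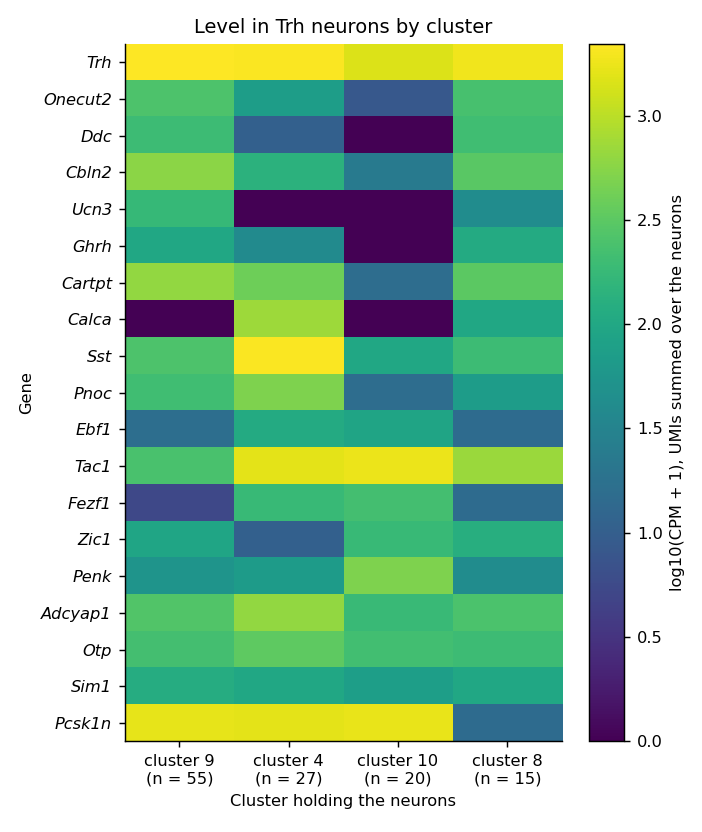
Colour gives log10(CPM + 1) of 19 genes (rows) summed over the Trh neurons of clusters 9, 4, 10 and 8 (columns, with the number of Trh neurons). Onecut2, Ddc and Cbln2 are high in clusters 9 and 8, Calca and Sst in cluster 4, Tac1 and Fezf1 in clusters 4 and 10, and Pcsk1n is low in cluster 8 alone, the one made up of Trh neurons of the 3 libraries that stood apart.

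The mix differed from mouse to mouse. Cluster 9 held Trh neurons from 11 mice, cluster 4 from 8 and cluster 10 from 7. High fat diet replicate 2 had 11 of the 20 Trh neurons of cluster 10, and control replicate 3 and high fat diet replicate 2 had 8 each of the 27 in cluster 4. Of the 131 Trh neurons 65 had Otp without Fezf1, 8 had Fezf1 without Otp, 26 had both and 32 had neither. No mouse had 5 neurons with Fezf1 and without Otp, so these were not tested against each other. Of the markers Adcyap1, Otp, Fezf1, Cbln1 and Onecut2, 7 neurons had all 5, 35 had 4, 35 had 3, 28 had 2, 21 had 1 and 5 had none.

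A second peptide was common. With at least 3 UMIs counted as present, Tac1 was in 43 of 131 Trh neurons (32.8%), Adcyap1 and the growth factor gene Bdnf in 40 each (30.5%), Pnoc in 29 (22.1%), Sst in 24 (18.3%) and Calca in 15 (11.5%). In the Otp or Sim1 neurons the shares were 13.7% for Tac1, 10.5% for Adcyap1, 17.2% for Bdnf, 7.96% for Pnoc, 7.01% for Sst and 2.87% for Calca. These shares pool barcodes over mice, 34 of the 131 from high fat diet replicate 2, and depend on depth. The median was 6195 UMIs in Trh neurons and 5078 in the Otp or Sim1 neurons. After thinning, at least 1 Adcyap1 UMI was seen in 23.7% of Trh neurons and 14.3% of the Otp or Sim1 neurons. In barcodes with an oligodendrocyte marker profile, which should lack these genes and were chosen without UMIs of Slc17a6, Gad1, Gad2 or Slc32a1, Tac1 reached 3 UMIs in 0.0905% and Sst in none. Their median depth was 1468 UMIs. Penk was in 10 Trh neurons (7.63%), against 20.7% of the Otp or Sim1 neurons. Crh and Cck had 0 UMIs in the 131 Trh neurons, which allows up to 2.29% of cells with a UMI of each.

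Of the 8 precursor genes Cartpt, Tac1, Sst, Calca, Penk, Nts, Gal and Pdyn, 54 Trh neurons had none at 3 UMIs or more, 52 had 1, 18 had 2, 5 had 3 and 2 had 4. No Trh neuron had both Cartpt, which 8 had, and Tac1. Tac1 was with Calca in 7, with Sst in 7 and with Penk in 7. Over the 9 mice, neither Tac1 (log2 fold 0.71, SE 0.39, edgeR adjusted p = 0.57), Bdnf (0.64, SE 0.24, 0.26) nor Sst (2.06, SE 0.67, 0.21) passed against the other glutamatergic neurons, with Sst ranging from 8.43 to 3872 CPM between the Trh neurons of single mice.

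**Figure D4:**
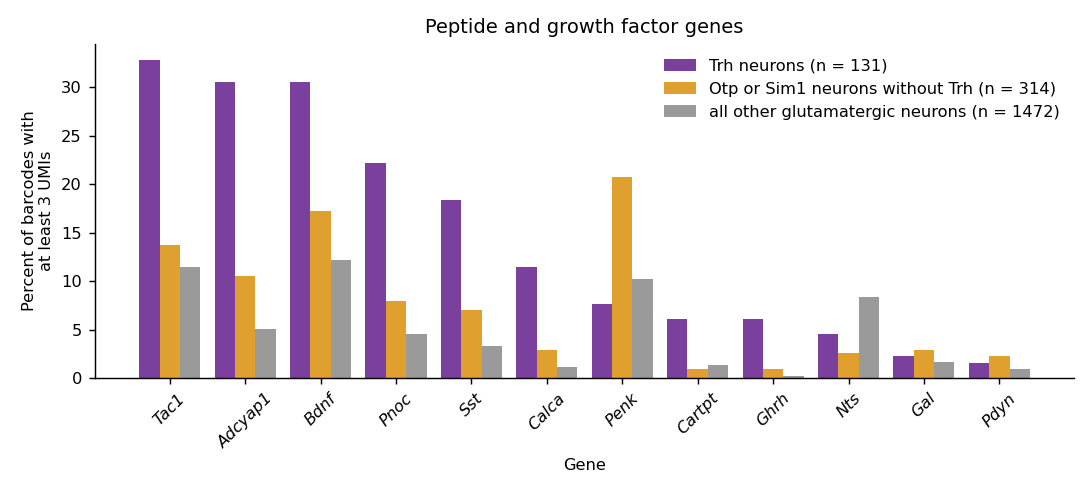
Percent of barcodes with at least 3 UMIs (y axis) of 12 peptide and growth factor genes in Trh neurons (purple, n = 131), Otp or Sim1 neurons without Trh (orange, n = 314) and all other glutamatergic neurons (grey, n = 1472, which include the orange group). Tac1, at 32.8%, is the most frequent in Trh neurons, and Penk is lower there, at 7.63%, than in the Otp or Sim1 neurons, at 20.7%.

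Diet was tested within Trh neurons in 5 high fat diet and 4 control mice, with the sequencing pool as a covariate. None of 1823 genes passed (0%) by edgeR's quasi-likelihood test with Benjamini-Hochberg adjustment, 41 had an unadjusted p under 0.05, and the smallest adjusted p was 0.999. DESeq2 also called 0, with 35 unadjusted. In simulated counts with the same libraries this test recovered 63.6% of changes with a log2 size of 1 and all of those of 2 or 3, over 1726 genes. Those counts held 66, 67 and 66 changed genes of log2 size 1, 2 and 3 and gave 186 calls. Many changed genes ease the Benjamini-Hochberg limit, so the recovery of a lone changed gene was not measured and would be lower.

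Trh itself, whose low end the rule cuts, was at 1887, 1771, 2357, 1609 and 1688 CPM in the Trh neurons of high fat diet replicates 1 to 5, against 1743, 3090, 1737 and 1141 CPM in those of control replicates 2 to 5. The high fat diet values lay within the control range. Over all glutamatergic barcodes, where no limit on Trh applies, it averaged 220 ± 113 CPM on high fat diet and 211 ± 146 CPM on control chow (SD, n = 6 mice each; log2 fold 0.08, SE 0.48, edgeR adjusted p = 1.0). That sign turned without high fat diet replicate 2 (-0.22), control replicate 5 (-0.15), control replicate 1 (-0.0050) or the 3 libraries that stood apart (-0.02), and without control replicate 3 the log2 fold was 0.59. Over all glutamatergic barcodes 0 of 8010 genes passed (0%), with 145 unadjusted by edgeR, and DESeq2 called 0 with 166 unadjusted.

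Adcyap1 averaged 262 ± 103 CPM in the Trh neurons of high fat diet mice and 356 ± 67.2 CPM in those of control mice (log2 fold -0.45, SE 0.26), with overlapping mice. Otp had a log2 fold of 0.05 (SE 0.34), Cbln1 of -0.09 (SE 0.31) and Onecut2 of -0.17 (SE 0.31), each smaller than its error, and each turned its sign when single mice were left out. For Otp these were high fat diet replicate 5 (-0.17) and control replicate 4 (-0.17), for Cbln1 high fat diet replicate 1 (0.07) and control replicate 3 (0.23), and for Onecut2 high fat diet replicate 2 (0.0041). Tac1 averaged 888 ± 493 CPM on high fat diet and 379 ± 298 CPM on control chow (log2 fold 1.07, SE 0.69), and did not pass.

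The 5 genes with the smallest p in each direction did not pass the adjustment. Chmp3, a component of the ESCRT membrane-remodelling machinery, was at 202, 179, 193, 131 and 157 CPM in the Trh neurons of high fat diet replicates 1 to 5, against 32.3, 83.1, 92.8 and 27.8 CPM in those of control replicates 2 to 5. The diets did not overlap (log2 fold 1.33, SE 0.36, unadjusted p = 0.0015, edgeR adjusted p = 0.999). Mcts1, a factor of translation reinitiation, averaged 252 ± 26.99 CPM on high fat diet and 126 ± 41.9 CPM on control chow. Vps29, of the retromer complex, averaged 378 ± 36.3 CPM on high fat diet and 251 ± 30.5 CPM on control chow. Fam155a and Fbxo44 had log2 folds of 0.85 and 0.79. Cdh8, a cadherin, averaged 83.9 ± 48.4 CPM on high fat diet and 194 ± 35.6 CPM on control chow (log2 fold -1.08, SE 0.35, edgeR adjusted p = 0.999). Tardbp, Tsg101, Sdc2 and Grb2 had log2 folds of -0.83, -0.75, -0.66 and -0.60.

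**Figure D5:**
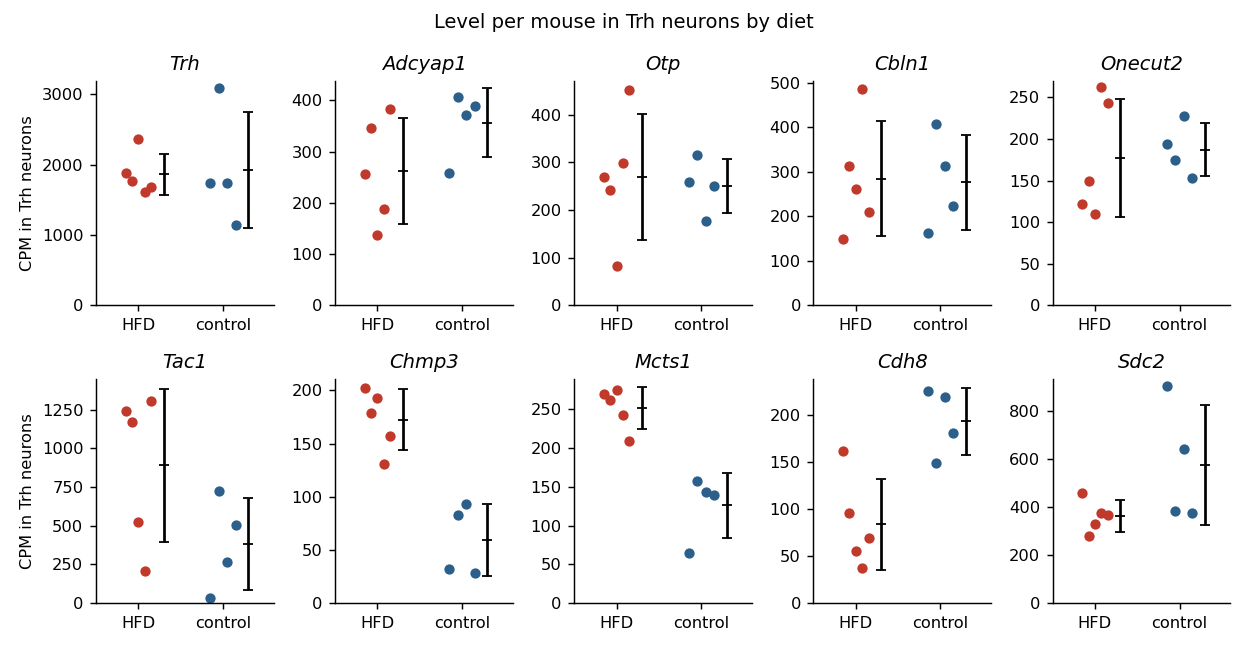
CPM in the Trh neurons of each high fat diet mouse (HFD, red, n = 5) and control mouse (blue, n = 4) for 10 genes, with the mean ± SD beside the points. Trh, Adcyap1, Otp, Cbln1, Onecut2 and Tac1 overlap between diets, and Chmp3, Mcts1 and Cdh8 are among the genes with the smallest unadjusted p, none of which passed the adjustment.

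An interaction term, in a fit that blocks on the mouse, tested whether diet moved Trh neurons unlike the other glutamatergic neurons. None of 6614 genes passed (0%), 280 had an unadjusted p under 0.05 and the smallest edgeR adjusted p was 0.744, while DESeq2 called 0 with 170 unadjusted. In simulated counts 19.7% of differences with a log2 size of 1 and 70.8% of those of 2 were recovered, over 6302 genes. Those counts held 66, 65 and 66 changed genes of log2 size 1, 2 and 3, so here too the recovery of a lone changed gene was not measured. The gene with the smallest p in the positive direction was mt-Nd5, a mitochondrially encoded subunit of complex I, with a log2 difference of 0.57 (SE 0.15), and in the negative direction it was Sall3, a zinc finger factor, with -3.51 (SE 0.92). For Adcyap1 the log2 difference was -0.04 (SE 0.42) and for Otp 0.44 (SE 0.35). That of Adcyap1 turned its sign without high fat diet replicate 1 (0.15), high fat diet replicate 3 (0.17) or control replicate 5 (0.27).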

How the data were processed

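The deposited values are raw UMI counts, 1 table of genes by barcodes per mouse, not normalized. The submitters' processing notes name mm10 (GRCm38), STAR 2.4.2a, Picard 2.2.4 and bcl2fastq 2.18.0.12. The UMI counting tool is not given in the sources used here. The neurons and gene lists were chosen with earlier results of these data known.

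Counts were summed per mouse and cell group and tested by robust quasi-likelihood in edgeR 4.0.16 (R 4.3.3; TMM, filterByExpr), the mouse as a block between cell groups and the pool as a covariate for diet. A minimum of 5 Trh neurons per mouse was used because only 2 control mice had 10. CPM use all UMIs of a sum. DESeq2 1.42.0 and other settings were alternatives. The fits were tested on simulated data. Doublets were called with Scrublet in scanpy 1.11.5 and not removed. Shares were compared by exact permutation (scipy 1.17.1). Glutamatergic barcodes were clustered with leidenalg 0.10.2 (15 neighbours, 30 principal components of 2000 variable genes). The p-values measure spread between mice. Genes named were, by rule, those that define the neurons, up to 12 called genes of largest fold in each direction with at least 30 CPM, the 5 of smallest p in each direction where fewer than 5 passed, and up to 5 genes of each list with those behind its counts. Results for some genes are not reported here.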

Additional observations from a re-analysis of the deposited data

Results flagged for a closer look

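Far single mice were looked for in 34 groups of 4 to 6 mice by the gap of the highest or lowest mouse to its nearest neighbour over the whole range (Dixon's ratio), and 4 were found. Chance alone flags about 1 in 20 groups where values are normally spread, which sparse genes such as Cartpt and Sst need not be. In the Trh neurons of high fat diet mice Cartpt was far higher in replicate 4, at 3724 CPM, all of it in a single barcode, with the next mouse at 336.9 CPM. In those of control mice it was far higher in replicate 3, at 772.4 CPM, with the next at 42.16 CPM. Sst was far higher in the Trh neurons of control replicate 2, at 3872 CPM, with the next control mouse at 157.8 CPM. Control replicate 2 had 7 Trh neurons, 5 in cluster 8, 1 in cluster 2 and 1 in cluster 4. Sst was at only 193 CPM over the 15 Trh neurons of cluster 8. Most Sst UMIs of control replicate 2 therefore came from its single barcodes in clusters 2 and 4. Trh over all glutamatergic barcodes was far higher in control replicate 3, at 499 CPM, with the next control mouse at 198.5 CPM.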

How the results depend on the processing

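Between Trh neurons and other glutamatergic neurons 146 to 205 genes were called under all settings but the lack of a filter on low counts, where 587 were (107 higher, 480 lower, 142 of them among the 182). Against the Otp or Sim1 neurons 29 to 44 were called, except 101 without the filter and 21 without control replicate 4, so that leaving out mice gave 21 to 44. All 892 and 384 alternative values of the 47 and 21 named genes in these comparisons kept their direction, 70 and 17 calls were lost, and 34 and 15 genes kept every call that could be made, since genes under the filter in a setting gave no value there. The interaction gave 1 gene without the filter and 4 with at least 10 Trh neurons per mouse (2 control mice), where Nts had a log2 difference of -2.58 (edgeR adjusted p = 0.031). No setting gave a diet call in Trh neurons.

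Leaving out mice, the share difference ran from -0.799 to 2.03 points and the diet fold of Trh in all glutamatergic barcodes from -0.217 to 0.590. Without the 3 libraries that stood apart they were -0.134 points and -0.0223. Ranges that crossed 0 were -0.274 to 0.233 for Cbln1, -0.328 to 0.0041 for Onecut2 and -0.174 to 0.370 for Otp in Trh neurons by diet, -0.362 to 0.269 for Adcyap1 and -0.172 to 0.418 for Onecut2 in the interaction, and -0.548 to 0.183 for Otp and -0.328 to 0.188 for Onecut2 in all glutamatergic barcodes. The diet fold of Otp was -0.18 with 5 Trh UMIs and -0.14 with 10 Trh neurons per mouse. In the interaction Onecut2 was -0.0841 with 2 Trh UMIs, and Adcyap1 0.0347 with 5 and 0.0732 against neurons with 0. The cause was not tested. The settings with 10 Trh neurons, 0 Trh UMIs and under 1% oligodendrocyte markers were chosen after seeing the data.

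The planned test of Otp against Fezf1 Trh neurons was not run, nor its alternatives, since no mouse had 5 Trh neurons with Fezf1 and without Otp. No paired analysis was possible because the replicate numbers pair no mice across diets. The comparisons of cell groups were within mice.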

Other observations

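The receptor for the hormone itself, Trhr, had a UMI in 31 of 131 Trh neurons (23.7%), against 7.34% of the other glutamatergic neurons. After thinning it was in 5.34% of Trh neurons, 2.24% of the other glutamatergic neurons, 2.26% of GABAergic barcodes and 0.121% of barcodes with an oligodendrocyte marker profile. Trhde, which degrades the hormone, was in 16 Trh neurons (12.2%), against 9.17% of the other glutamatergic neurons and 0.0905% of the oligodendrocyte barcodes. Lepr, the leptin receptor, had 0 UMIs in the 131 Trh neurons, which allows up to 2.29%, and Mc4r, the melanocortin receptor, was in 4.

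Ghrh, the precursor of growth hormone-releasing hormone, had a UMI in 27 Trh neurons (20.6%) from 11 mice, against 2.92% of the other glutamatergic neurons, and at least 3 UMIs in 8. After thinning Ghrh was in 3.05% of Trh neurons, 0.611% of the other glutamatergic neurons and 0 of 3315 oligodendrocyte barcodes. Nucb2, the nesfatin precursor, averaged 151 ± 81.0 CPM in Trh neurons and 72.7 ± 12.9 CPM in the other glutamatergic neurons (log2 fold 0.87, SE 0.18, edgeR adjusted p = 0.00063, n = 9 mice), higher in 9 of 9 mice.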
